A study of Eleocharis dulcis with 24 samples.

Results

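A set of 170 genes reached its highest level at maturity in both cultivated and wild corms of Eleocharis dulcis (a sedge known as Chinese water chestnut, whose crisp corm, a swollen stem base below ground, is eaten). They were chosen among the 33415 genes of the deposited table whose ID starts with EdulChr, out of 35975 features in all. They were chosen by their measured stage means: each had its highest mean at maturity in cultivated corms and again in wild corms, a mean of at least 5 TPM at maturity in each origin, and every group mean under 2000 TPM. TPM is the abundance of a transcript relative to a total of 1000000 in its library. The study sampled corms of cultivated plants and of wild plants at the initial, middle and late swelling stages and at maturity. Each of the 8 groups held 3 libraries, described by the submitters as biological replicates, which gave 24 libraries. The labels name no treatment, plant line, growing site, age in days or batch, so line, site and batch cannot be told apart from origin.

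A corm forms when the tip of an underground stem stops elongating and swells. During swelling its cells divide, enlarge and fill with starch and sugars, and at maturity growth slows and the corm passes into a resting organ from which a new plant can sprout. The files pair no ID with a gene name, so roles cannot be stated for these genes, and no marker gene could be used to check the tissue label.

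Libraries of one group lay close together, with Spearman correlations across genes of 0.984 to 0.992 within groups and of 0.512 to 0.961 between groups. Values of a library summed to between 999991 and 1000002 TPM, which leaves the depth unknown, and the spread of the 3 replicates is its error. TPM also shares a fixed total among all transcripts. Median-of-ratios factors, which follow the level of the typical gene, were 0.529 to 0.539 in mature wild and 0.862 to 0.883 in mature cultivated libraries, against 1.19 to 1.21 and 1.34 to 1.48 at the initial stage. When the values were divided by these factors, 1349 genes met the rule in place of 170, and 168 of the 170 were among them. The 170 are thus genes whose share of the total peaked at maturity. In these corm libraries fewer cells of a type and less RNA per cell cannot be told apart.

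A mature peak was shared by a minority of the genes that had one in either origin. Of the 8278 EdulChr genes within the limits on level in both origins, 709 (8.56%) peaked at maturity in cultivated corms and 1090 (13.2%) in wild corms. The 170 shared genes made up 23.98% of the 709 and 15.6% of the 1090. These numbers hold for TPM as deposited. Another 11 EdulChr genes met the rule except that a group mean reached 2000 TPM or more, and 108 except that a mature mean was under 5 TPM. Of the 2560 features without the prefix, 7 met the same limits.

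Together the 170 genes took 0.660, 0.663 and 0.594% of TPM in the initial cultivated libraries, 1.63, 1.64 and 1.63% at middle, 1.80, 1.81 and 1.83% at late and 2.70, 2.72 and 2.72% at maturity. In wild corms they took 0.415, 0.410 and 0.415% at the initial stage, 0.621, 0.621 and 0.614% at middle, 0.989, 1.00 and 0.997% at late and 2.07, 2.07 and 2.1% at maturity. The cultivated share went up most between initial and middle, and nearly as much between late and maturity. The wild libraries made their largest step from late to maturity. Libraries of successive stages did not overlap in either origin. These sums hold the values by which the genes were chosen and were not tested. The 10 highest genes held 39.9% of the sum in mature cultivated and 40.2% in mature wild corms.

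**Figure D1:**
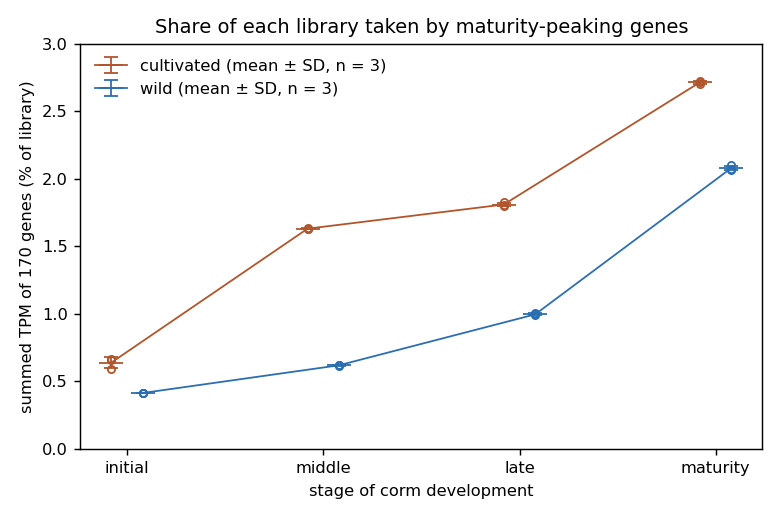
Summed TPM of the 170 maturity-peaking genes as a percentage of each library (vertical axis) by stage (horizontal axis). Circles are libraries, dashes and bars the mean ± SD of 3 libraries, joined by lines. The cultivated share went from 0.639% at the initial stage through 1.63% at middle to 2.72% at maturity, and the wild share from 0.413% through 0.619% to 2.08%.

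Mature levels of single genes spanned 5.87 to 1775 TPM in cultivated corms, with a median of 52.8 TPM, and 5.03 to 1298 TPM in wild corms, with a median of 42.3 TPM. The median initial level was 17.0 TPM in cultivated and 9.30 TPM in wild corms. In 36 genes the mature mean was at least 100 TPM in both origins, and in 25 it was under 20 TPM in both. Across the 170 genes the log2 mature levels of the origins were correlated with r = 0.69 (Pearson) and rho = 0.67 (Spearman). Libraries at maturity varied little around these means, with a median coefficient of variation of 4.35% in cultivated and 3.97% in wild corms.

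Maturity stood out by a wide margin in some of the genes and by a narrow one in most. The mature mean exceeded the highest earlier stage mean by a median of 1.25-fold in cultivated corms and 1.77-fold in wild corms. It was at least 2-fold above every earlier stage for 18 genes in cultivated corms, for 64 in wild corms and for 13 in both. Every mature library lay above every earlier library of its origin for 123 genes in cultivated corms, 146 in wild corms and 111 in both, and for 12 genes the libraries overlapped in both origins. The margin was larger in wild corms for 117 genes and larger in cultivated corms for 53. Margins of the origins were weakly related across the genes, with r = 0.25 (Pearson) and rho = 0.22 (Spearman) on the log2 scale.

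The limits of the rule divided genes with nearly equal values. At the minimum of 5 TPM, the lower mature mean was 5.03 TPM for EdulChr103G00319030, 5.87 TPM for EdulChr97G00306880 and 5.91 TPM for EdulChr2G00009050, all inside. It was 4.81 TPM for EdulChr107G00326840, 4.78 TPM for EdulChr61G00213250 and 4.64 TPM for EdulChr91G00293140, all outside. Among genes with the smallest margins, the mature mean was 1.002 times the highest earlier mean in cultivated corms, the origin with the smaller margin, for EdulChr71G00239880 and 1.003 times for EdulChr11G00047460 and EdulChr81G00266800. Just outside, the smaller ratio was 0.9999 in wild corms for EdulChr13G00055490, 0.998 in wild corms for EdulChr56G00199920 and 0.996 in cultivated corms for EdulChr29G00116500. At the upper limit the neighbours lay farther apart: the highest group mean was 1775 TPM for EdulChr42G00158800, 1625 TPM for EdulChr45G00168380 and 1406 TPM for EdulChr104G00320360 inside, and 3111 TPM for EdulChr13G00057460, 7122 TPM for EdulChr101G00315270 and 8854 TPM for EdulChr60G00210430 outside.

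The gene with the highest mature level was EdulChr42G00158800. In cultivated corms it stood at 149.6, 152 and 136 TPM at the initial stage, 585, 559.7 and 601 TPM at middle, 471, 469 and 466 TPM at late and 1728, 1827 and 1769.6 TPM at maturity. In wild corms it stood at 97.5, 100.3 and 103 TPM at the initial stage, 209.7, 204 and 208 TPM at middle, 448, 472 and 454 TPM at late and 1086, 1064 and 1059.5 TPM at maturity. No mature library of either origin overlapped an earlier one, and the cultivated level dipped between middle and late while the wild level climbed at every step. At maturity the cultivated libraries lay above the wild ones, and the log2 difference was 0.73 ± 0.04 (SE, limma adjusted p = 4.96e-13). After median-of-ratios scaling that difference was 0.02 and did not pass the test (limma adjusted p = 0.474).

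EdulChr45G00168380 followed a different course in cultivated corms, with 213, 216 and 199 TPM at the initial stage, 1136, 1153 and 1242 TPM at middle, 1588, 1618 and 1626 TPM at late and 1569, 1689.5 and 1616 TPM at maturity. Late and mature cultivated libraries overlapped, so maturity was the highest stage by mean alone. In wild corms it stood at 8.28, 7.39 and 7.14 TPM at the initial stage, 81.2, 79.8 and 77.6 TPM at middle, 128, 140.3 and 140.4 TPM at late and 392, 392 and 395 TPM at maturity, and each stage lay above the one before. At maturity the log2 value was higher in cultivated corms by 2.05 ± 0.05 (SE, limma adjusted p = 3.37e-19), with every cultivated library above every wild one.

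EdulChr17G00062360 was the highest gene of the set in mature wild corms. Its wild libraries held 5.69, 5.07 and 5.52 TPM at the initial stage, 46.3, 43.8 and 47.1 TPM at middle, 161, 176 and 180.2 TPM at late and 1332, 1266 and 1295 TPM at maturity. Cultivated libraries held 309, 318 and 269 TPM at the initial stage, 189, 186 and 195 TPM at middle, 502, 502 and 519 TPM at late and 589.9, 651 and 585 TPM at maturity. The mature mean was 239 times the initial mean in wild and 2.04 times in cultivated corms, and the order of the origins turned over at the last step. At maturity the log2 difference, cultivated minus wild, was -1.09 ± 0.06 (SE, limma adjusted p = 2.52e-13).

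EdulChr2G00008800 had nearly the same mature TPM as deposited in both origins, 855, 876 and 848 TPM in cultivated and 939.7, 898 and 937 TPM in wild corms. Its paths there differed: cultivated means were 111, 498 and 317 TPM at the 3 earlier stages and wild means 54.0, 102 and 291 TPM. The mature log2 difference was -0.11 ± 0.04 (SE, limma adjusted p = 0.0325), against -0.81 after median-of-ratios scaling. In the values as deposited it no longer passed the test (limma adjusted p of 0.072 to 0.0938) when any one of 4 of the 6 mature libraries was left out, namely cultivated replicates 1 and 3 and wild replicates 1 and 3.

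EdulChr104G00320360 was the gene in which the last step differed most in size among the 6 highest. Its wild libraries held 7.85, 8.15 and 5.83 TPM at the late stage and 328, 328 and 339 TPM at maturity, a 45.6-fold rise. Cultivated libraries held 405, 432 and 439 TPM at late and 1414, 1428 and 1377 TPM at maturity, a 3.31-fold rise. The late to maturity change was smaller in cultivated than in wild corms, with a difference in log2 change of -3.62 ± 0.14 (SE, limma adjusted p = 4.44e-15). EdulChr104G00321260, the last of the 6, was higher in wild corms, with 962, 950.0 and 974 TPM against 583, 519.8 and 589.9 TPM at maturity.

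**Figure D2:**
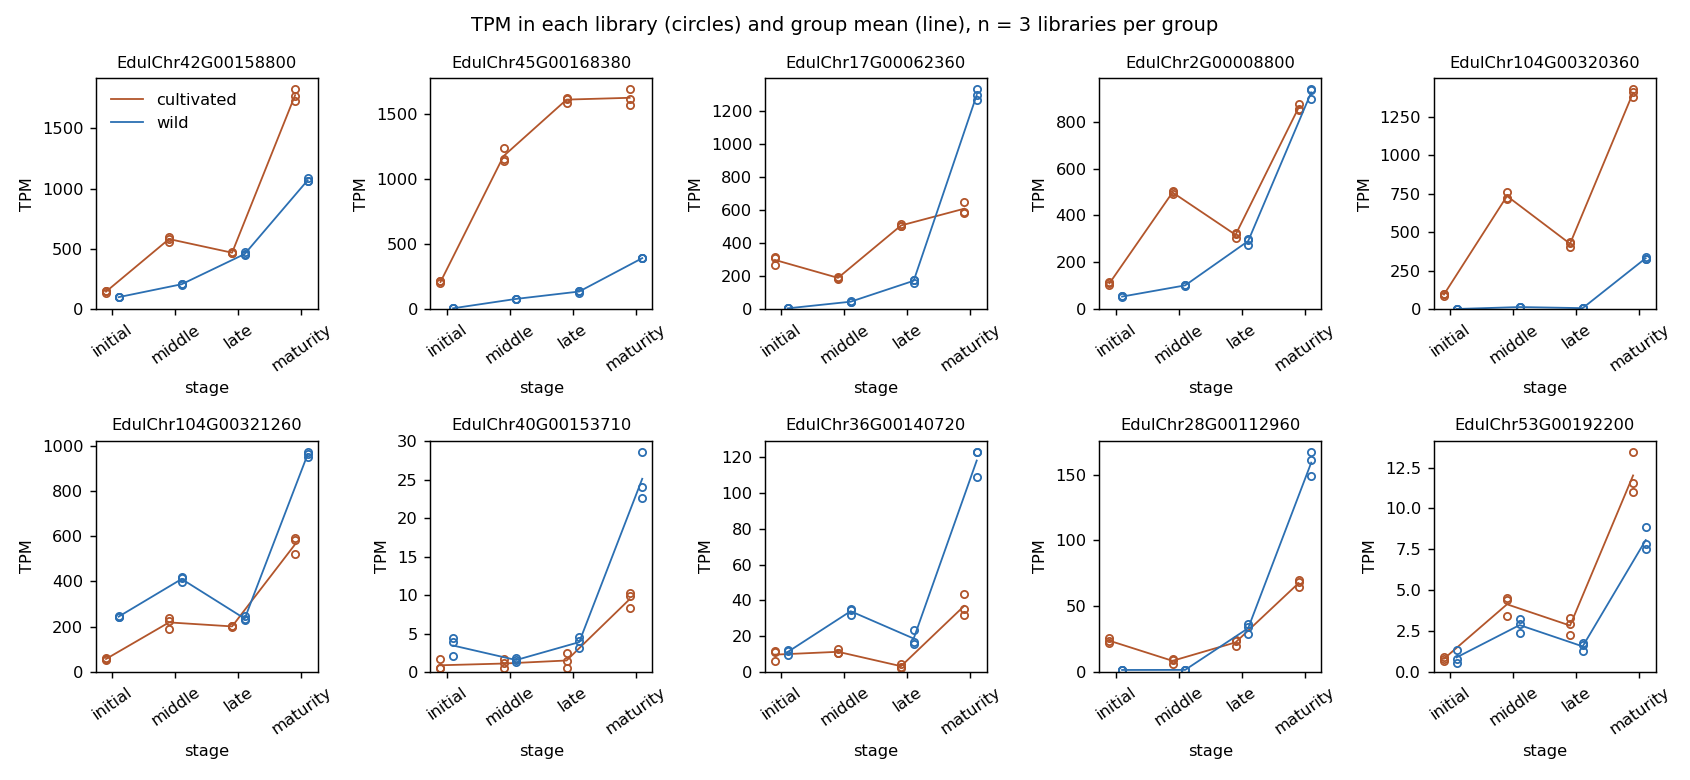
TPM (vertical axis, linear and starting at 0, a scale of its own in each panel) by stage for the 6 genes with the highest mature levels and the 5 with the largest margins in both origins, 10 genes in all because EdulChr104G00321260 is in both sets. Circles are libraries and lines join means of 3 libraries. In cultivated corms EdulChr42G00158800, EdulChr2G00008800 and EdulChr104G00320360 had a lower mean at late than at middle before their mature peak. The same held for EdulChr104G00321260, EdulChr36G00140720 and EdulChr53G00192200.

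The genes in which maturity stood out most in both origins included several of low level. EdulChr40G00153710 stood at 1.67, 0.480 and 0.460 TPM in initial cultivated libraries, at 1.09 and 1.49 TPM on average at middle and late, and at 10.2, 9.87 and 8.28 TPM at maturity. Its wild libraries held 22.7, 24.1 and 28.6 TPM at maturity against at most 4.55 TPM in any earlier library. The mature mean was 6.35-fold above the highest earlier mean in cultivated corms and 6.48-fold above it in wild corms.

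EdulChr36G00140720 rose at the last step from 2.22, 4.61 and 2.82 TPM to 31.9, 43.4 and 35.2 TPM in cultivated corms. In wild corms the same step went from 16.9, 23.6 and 15.5 TPM to 123, 123 and 109 TPM. In both origins the late level was below the middle level, so the mature peak followed a trough. EdulChr28G00112960 had margins of 2.84-fold in cultivated and 4.78-fold in wild corms, EdulChr53G00192200 of 2.90-fold and 2.81-fold, and EdulChr104G00321260 of 2.58-fold and 2.34-fold. The profile of EdulChr53G00192200 was alike in shape in both origins, with means of 0.807, 4.14, 2.84 and 12.0 TPM from initial to maturity in cultivated and 0.890, 2.87, 1.56 and 8.06 TPM in wild corms.

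The rule does not fix the order of the stages before maturity. In TPM as deposited, the origins gave similar counts of genes for that order but different shares of the rise. The initial stage was the lowest in 133 genes in cultivated and 118 in wild corms, and in 97 genes in both. The second-highest stage was late in 95, middle in 61 and initial in 14 genes in cultivated corms, and late in 97, middle in 59 and initial in 14 in wild corms, but it was the same stage in both origins for 72 genes. Levels rose at every step in 80 genes in cultivated corms, in 78 in wild corms and in 43 in both. The whole order of the 4 stages was the same in both origins for 57 genes. In cultivated corms the median gene had covered 39.6% of its rise from initial to maturity by the middle stage (quartiles 14.0 and 60.6%) and 55.5% by the late stage. In wild corms these medians were 12.3% (quartiles 2.41 and 34.9%) and 23.4%.

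**Figure D3:**
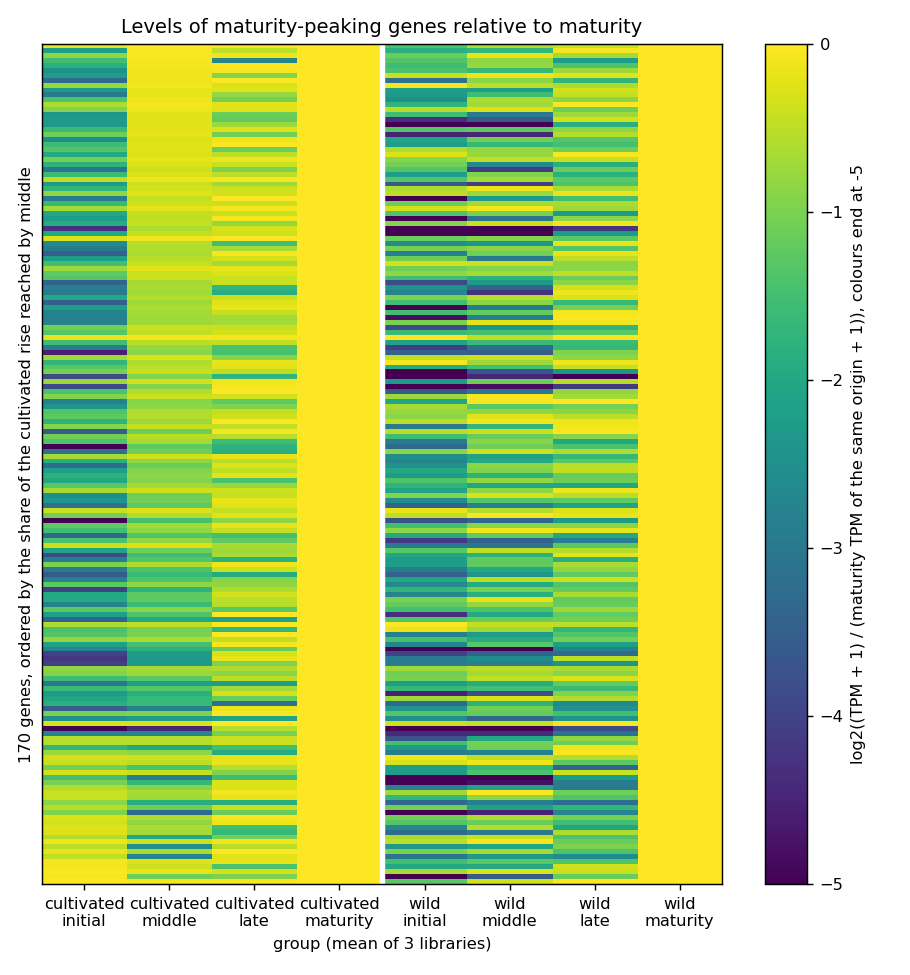
Group means of the 170 genes (rows) in the 8 groups (columns), each as log2 of TPM + 1 relative to maturity of the same origin, so that both maturity columns are 0 by construction and no value is above 0. Rows are ordered by the share of the cultivated rise reached by middle. The cultivated middle column is closer to its maturity than the wild middle column in much of the map, where the median shares of the rise were 39.6 and 12.3%.

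From the initial to the middle stage, 74 of the 170 genes were higher and 6 lower in cultivated corms (limma on log2(TPM + 1), adjusted p under 0.05 and at least 2-fold). Of all 27050 genes tested, 9.04% were higher and 30.9% lower in this step. Among the 8278 genes within the level limits, 13.3% were higher and 18.9% lower. In wild corms 36 genes were higher and 6 lower, against 4.36 and 5.81% of all tested genes and 3.73 and 4.57% of those within the level limits. The rule sets every earlier stage below maturity, and the counts were not tested as a set. The median log2 change was 0.83 in cultivated and 0.47 in wild corms, against -0.47 and 0.08 over all genes tested.

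The first step differed between the origins in 65 of the genes. The change was more positive in cultivated corms for 48 and more positive in wild corms for 17 (limma interaction test, adjusted p under 0.05 and at least 2-fold), against 9.42 and 32.7% of all genes tested and 13.2 and 18.6% of those within the level limits. After median-of-ratios scaling the numbers were 78 and 9, against 16.3 and 19.9% of all genes tested and 25.3 and 7.14% of those within the level limits. This comparison was added after the values had been seen. A call in the same direction was shared by 20 genes, which were higher at middle in both origins. Another 49 were called higher in cultivated and not called in wild corms, and 15 the other way round. Of all genes tested, 0.773% were called higher in both, 7.66% in cultivated alone and 2.26% in wild alone, and of those within the level limits 1.57, 10.5 and 1.79%. Among the 170 genes the shares were 11.8, 28.8 and 8.82%. A missing call in one origin does not show a difference between the origins.

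**Figure D4:**
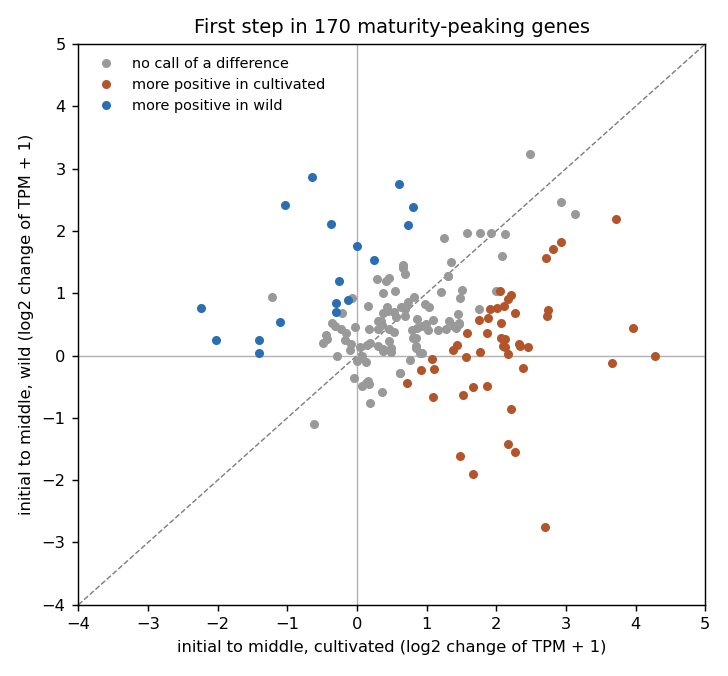
Log2 change of TPM + 1 from initial to middle in cultivated (horizontal axis) and wild corms (vertical axis) for the 170 genes, 1 point a gene, with the line of equal change dashed. Coloured points differed between origins in limma's interaction test with at least a 2-fold difference: 48 genes were more positive in cultivated and 17 in wild corms.

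On the log2(TPM + 1) scale, and with at least 5 TPM at middle, the largest first-step rises in cultivated corms were those of EdulChr30G00118300 and EdulChr73G00246590. EdulChr30G00118300 was uneven among libraries, with 0, 5.89 and 0 TPM at the initial and 47.3, 31.0 and 31.6 TPM at the middle stage. It was listed at 0 in all 6 initial and middle wild libraries, yet reached 42.0, 99.8 and 95.6 TPM in mature wild corms. Its cultivated rise was 4.28 ± 0.63 (SE, limma adjusted p = 2.61e-06) on the log2 scale. EdulChr73G00246590 went from 1.78, 1.80 and 2.11 TPM to 43.6, 46.3 and 42.9 TPM in cultivated corms, and from 0.10, 0.0300 and 0.140 TPM to 0.530, 0.460 and 0.470 TPM in wild corms. Its change differed between the origins by 3.52 ± 0.09 (SE, limma adjusted p = 3.61e-18).

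In wild corms the largest first-step rises on that scale and above that level were those of EdulChr45G00168380, from 7.60 ± 0.599 TPM to 79.5 ± 1.82 TPM (SD, n = 3), and EdulChr17G00062360, from 5.43 ± 0.320 TPM to 45.7 ± 1.75 TPM (SD, n = 3). The wild rise was 3.23 ± 0.05 (SE, limma adjusted p = 6.94e-21) for EdulChr45G00168380 and 2.86 ± 0.06 (SE, limma adjusted p = 4.57e-19) for EdulChr17G00062360. In cultivated corms EdulChr17G00062360 went from 299 TPM to 190.1 TPM, and its first step differed between the origins by -3.51 ± 0.08 (SE, limma adjusted p = 9.29e-19).

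A few genes dipped at the middle stage before they climbed to maturity. In cultivated corms EdulChr36G00140030 went from 7.67, 7.11 and 7.28 TPM to 0.560, 0.620 and 1.19 TPM, and was back at 8.87, 8.79 and 9.36 TPM at the late stage. The fall was -2.24 ± 0.12 (SE, limma adjusted p = 5.71e-13). EdulChr52G00189920 fell in the same step, from 16.0 ± 2.50 TPM to 3.22 ± 0.770 TPM (SD, n = 3), and stood at 16.0 TPM at late. Neither dipped in wild corms, where means went from 3.59 to 6.80 TPM for EdulChr36G00140030 and from 2.48 to 3.15 TPM for EdulChr52G00189920.

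The mirror case was a dip in wild corms at the stage where cultivated corms had already risen. EdulChr43G00163500 went from 138, 133 and 125 TPM to 17.6, 18.8 and 20.1 TPM in wild corms and returned to 145, 149 and 156 TPM at late. In cultivated corms it went from 54.5, 52.8 and 48.8 TPM to 339.5, 342 and 345 TPM. No library of these groups overlapped, and the first step differed by 5.44 ± 0.07 (SE, limma adjusted p = 2.23e-22). EdulChr71G00238910 had the same opposite course, with a wild fall from 23.4 to 5.55 TPM and a cultivated rise from 8.83 to 30.3 TPM, a difference of 3.57 ± 0.08 (SE, limma adjusted p = 2.13e-19). In total 5 genes were called higher at middle in cultivated and lower in wild corms. The others, named after their values were seen, were EdulChr17G00065050, EdulChr21G00085430 and EdulChr18G00076950, with wild means of 3.52, 19.9 and 5.72 TPM at initial and 0.587, 6.84 and 1.18 TPM at middle.

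From the middle to the late stage 16 genes were higher and 6 lower in cultivated corms. Over all genes tested 8.87% were higher and 3.75% lower, and within the level limits 6.89 and 4.23%. The 170 genes thus gave 9.41 and 3.53%, near the background. In wild corms 45 genes were higher and 10 lower, or 26.5 and 5.88%, against 7.85 and 26.8% of all genes tested and 10.3 and 19.5% of those within the level limits. After median-of-ratios scaling 10 were higher and 19 lower in cultivated corms, against 3.84 and 6.24% of all genes tested and 2.45 and 8.40% of those within the level limits. In wild corms 80 were then higher and 1 lower, against 14.5 and 11.1% of all genes tested and 19.8 and 3.85% of those within the level limits. No call at either of these 2 steps was made for 80 genes (47.1%) in cultivated corms, for 91 (53.5%) in wild corms and for 57 (33.5%) in both. The same held for 54.2, 60.7 and 36.9% of all genes tested and for 62.6, 66.2 and 46.3% of those within the level limits. After scaling, the shares of the 170 genes without such a call were 31.2, 44.7 and 18.2%. They were then 60.2, 70.3 and 46.2% of all genes tested and 62.8, 73.3 and 51.9% of those within the level limits.

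Cultivated and wild corms were then compared at each stage, a difference that the rule does not use apart from its limits on level. At the initial stage 65 of the 170 genes were higher and 25 lower in cultivated corms, against 21.1 and 20.2% of all genes tested. At the middle stage 87 were higher and 18 lower, against 17.2 and 37.9%. At the late stage 75 were higher and 19 lower, against 31.9 and 22.3%. At maturity 51 were higher and 32 lower, against 27.7 and 12.2%. As shares of the 170 genes, calls of higher levels thus went from 38.2% through 51.2 and 44.1 to 30.0%, and calls of lower levels from 14.7% through 10.6 and 11.2 to 18.8%. Among the 8278 genes within the level limits, 18.7, 22.4, 33.2 and 25.3% were higher and 19.1, 28.0, 16.4 and 12.6% lower at the 4 stages. The excess in cultivated corms was largest at the middle stage, with a median log2 difference of 1.03 over the 170 genes against -0.53 over all genes tested, and smallest at maturity, with 0.39 against 0.20.

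With the scaling applied the split narrowed at late and turned over at maturity. After median-of-ratios scaling 42 genes were higher and 37 lower at late, and 31 higher and 56 lower at maturity, with median log2 differences of 0.14 and -0.32 over the 170 genes and of -0.20 and -0.08 over all genes tested. Of all genes tested 19.1 and 30.5% were then higher and lower at late and 19.0 and 22.9% at maturity, and of those within the level limits 16.1 and 29.1%, and 11.6 and 29.0%. At the initial and middle stages the scaled numbers were 55 and 26, and 96 and 12, against 15.0 and 23.0%, and 21.3 and 31.5%, of all genes tested. Of those within the level limits 13.7 and 24.5% were higher and lower at initial, and 28.6 and 21.3% at middle. With TPM as deposited, at no stage was a difference called for 28 genes. In 27 genes the cultivated level was called higher at all 4 stages and in 6 lower at all 4, and in 17 the direction of the call changed between stages. These were 16.5, 15.9, 3.53 and 10% of the 170 genes. The shares were 13.9, 7.80, 4.90 and 7.05% of all genes tested, and 19.6, 7.73, 4.05 and 6.33% of those within the level limits.

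**Figure D5:**
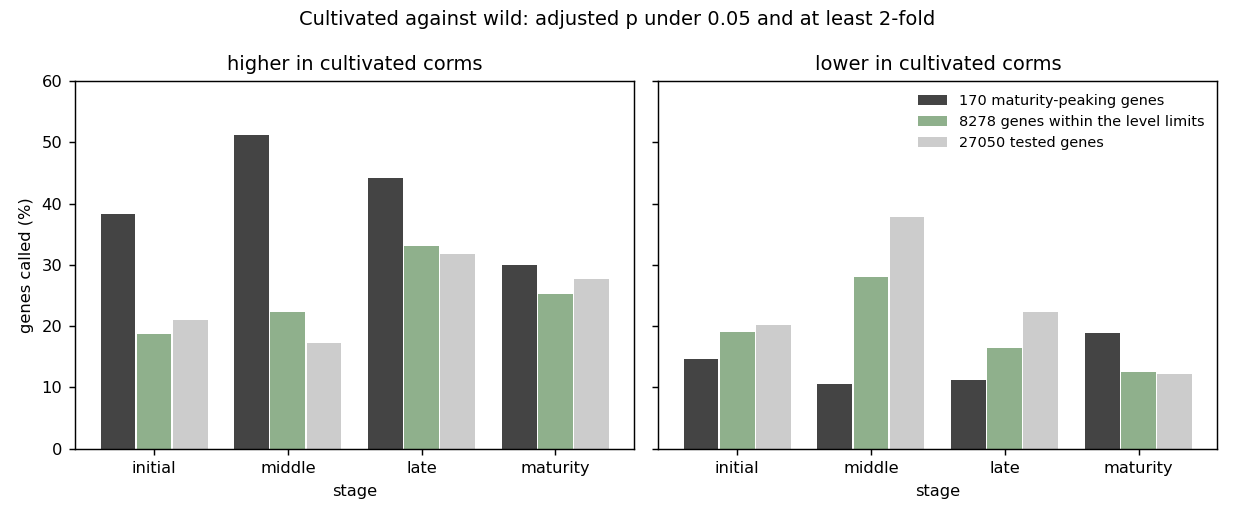
Percentage of genes (vertical axis) called higher (left) or lower (right) in cultivated than in wild corms at each stage, with limma adjusted p under 0.05 and at least a 2-fold difference, from TPM as deposited. Bars are the 170 maturity-peaking genes, the 8278 EdulChr genes within the same level limits, and all 27050 genes tested. At the middle stage 51.2% of the 170 genes were higher in cultivated corms against 17.2% of all genes tested.

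The largest cultivated excess at maturity was that of EdulChr50G00183750. Its mature libraries held 886, 907 and 911 TPM in cultivated and 41.2, 39.9 and 39.5 TPM in wild corms. The log2 difference was 4.45 ± 0.09 (SE, limma adjusted p = 1.87e-20). Its initial wild level was 0.820, 0.200 and 0.470 TPM, and its mature mean was 81.0 times the initial mean in wild and 7.15 times in cultivated corms. EdulChr10G00042790 stood at 272, 282 and 280.2 TPM in mature cultivated and 19.1, 17.6 and 18.3 TPM in mature wild libraries, a difference of 3.85 ± 0.07 (SE, limma adjusted p = 1.75e-21). Nearly all of its wild rise came in the last step, from 1.09, 0.870 and 1.00 TPM at the late stage. EdulChr10G00044580 and EdulChr73G00246590 followed, with differences of 3.68 ± 0.07 (SE, limma adjusted p = 2.03e-21) and 3.08 ± 0.06 (SE, limma adjusted p = 2.18e-20). For EdulChr10G00044580 late and mature wild libraries overlapped, at 31.9 to 39.9 and 35.6 to 37.9 TPM.

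The largest wild excess was that of EdulChr47G00175760, with 373, 376 and 379 TPM in mature wild and 6.94, 6.69 and 6.33 TPM in mature cultivated libraries. The log2 difference was -5.62 ± 0.10 (SE, limma adjusted p = 1.35e-21), and cultivated levels stayed between 2.40 and 6.94 TPM at all stages. EdulChr37G00142320 stood at 128 TPM against 8.31 TPM at maturity, a difference of -3.79 ± 0.13 (SE, limma adjusted p = 1.12e-16). Its initial levels were 31.8 TPM in wild and 1.06 TPM in cultivated corms, and its mature means were 4.02 and 7.84 times these. EdulChr24G00097270 and EdulChr60G00209580 were lower in cultivated corms, with log2 differences of -3.38 ± 0.20 (SE, limma adjusted p = 1.34e-12) and -2.89 ± 0.07 (SE, limma adjusted p = 1.23e-19). For EdulChr60G00209580 the wild level was near its mature value by the late stage, 840 ± 17.4 against 913 ± 5.33 TPM (SD, n = 3), whereas the cultivated level went from 42.2 ± 2.54 to 122 ± 4.34 TPM (SD, n = 3) in that step.

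The size of the whole rise differed between the origins in 83 of the 170 genes. The change from initial to maturity was more positive in cultivated corms for 31 genes and more positive in wild corms for 52, against 27.8 and 12.9% of all genes tested and 24.4 and 12.0% of those within the level limits. The rule fixed that the changes from initial and from late to maturity were upward in both origins, and not which was larger. Genes of the background were not held to this, so their shares are not like for like. The counts were not tested as a set. The median difference, cultivated minus wild, was -0.18 over the 170 genes and 0.34 over all genes tested, and -0.69 and 0.08 after scaling, with 17 and 68 calls against 21.6 and 18.2% of all genes tested and 14.6 and 21.8% of those within the level limits. In the last step, from late to maturity, the change was more positive in cultivated corms for 11 genes and in wild corms for 49, against 22.8 and 13.8% of all genes tested and 16.9 and 19.5% of those within the level limits. After scaling there were 9 and 49 calls, against 24.97 and 13.7% of all genes tested and 17.1 and 19.4% of those within the level limits.

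The 3 genes whose rise was larger in cultivated corms by the widest margin were EdulChr65G00222140, EdulChr23G00094640 and EdulChr21G00086440. EdulChr65G00222140 went from 68.2, 70.0 and 60.5 TPM to 798, 756 and 775 TPM in cultivated corms. In wild corms it went from 152, 146 and 153 TPM to 219, 217 and 218 TPM. Cultivated libraries were all lower at the initial stage and all higher at maturity, and the changes differed by 3.00 ± 0.06 (SE, limma adjusted p = 7.59e-20). EdulChr23G00094640 rose from 2.43 TPM to 55.7 TPM in cultivated and from 3.75 TPM to 14.6 TPM in wild corms, a difference of 2.33 ± 0.09 (SE, limma adjusted p = 1.39e-15). EdulChr21G00086440 rose from 22.8 TPM to 212 TPM and from 13.3 TPM to 25.5 TPM, a difference of 2.27 ± 0.16 (SE, limma adjusted p = 4.44e-11).

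The 3 genes at the other end were EdulChr17G00062360, EdulChr2G00006250 and EdulChr12G00053320, each of them at low levels in initial wild corms. For EdulChr17G00062360 the changes differed by -6.63 ± 0.08 (SE, limma adjusted p = 8.61e-23). EdulChr2G00006250 went from 0.220, 0.200 and 0.480 TPM to 85.3, 81.6 and 72.4 TPM in wild corms. In cultivated corms it stood at 100.2, 95.9 and 86.8 TPM at the initial stage and 98.2, 98.0 and 100.1 TPM at maturity, with means of 45.6 TPM at middle and 49.5 TPM at late. These initial and mature cultivated libraries overlapped, and the changes differed by -5.89 ± 0.17 (SE, limma adjusted p = 1.45e-17). EdulChr12G00053320 went from 0.840, 0 and 0 TPM to 282, 275 and 294 TPM in wild and from 212, 198 and 187 TPM to 994, 980.0 and 981 TPM in cultivated corms, a difference of -5.56 ± 0.23 (SE, limma adjusted p = 1.01e-14). The pseudocount of 1 makes such differences smaller where levels are near 0.

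The genes were spread over the IDs. The number that follows EdulChr in an ID takes 111 values in the table, and 84 of them held at least 1 of the 170 genes. The most were 6 genes, under the numbers 21 and 71, or 1.80 and 2.04% of the EdulChr genes with those numbers, against 0.509% of all EdulChr genes. Consecutive IDs occurred in 5 pairs, 10 genes in all. Whether the members of a pair are similar in sequence was not tested, and near-identical copies could share reads.

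The pairs with consecutive IDs ranged from near-identical to weakly correlated profiles. EdulChr17G00065050 and EdulChr17G00065060 had a Pearson r of 0.99 over the 24 libraries on the log2 scale. At the middle stage they stood at 0.587 ± 0.420 TPM and 0.250 ± 0.0700 TPM in wild corms, and at 92.7 ± 6.95 TPM and 32.1 ± 0.835 TPM in cultivated corms (SD, n = 3). Their first step differed between the origins by 3.81 ± 0.18 (SE, limma adjusted p = 5.14e-14) and 3.07 ± 0.12 (SE, limma adjusted p = 2.47e-15). EdulChr67G00229450 and EdulChr67G00229460 had an r of 0.96 within the 12 cultivated and 0.95 within the 12 wild libraries, and of 0.74 over all 24. The remaining pairs, which begin with EdulChr2G00008800, EdulChr5G00024140 and EdulChr58G00203990, had an r of 0.60, 0.44 and 0.30 over all 24. Within cultivated libraries their r was 0.0097, 0.80 and 0.23, and within wild libraries 0.80, 0.38 and 0.96. Over all 14365 pairs of the 170 genes the median r was 0.56 and the 90th percentile 0.88. All these genes share the mature peak by choice.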

How the data were processed

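RNA from 24 corm libraries was measured by the authors, who deposited TPM values for all libraries in 1 table. Per the submitters' processing notes, HISAT2 2.0.4, StringTie 2.1.6 and DESeq2 were used, with no role stated here. Deposited TPM carry no depth, so no count test was run. The 170 genes, the gene lists and the comparisons were chosen with earlier results of these data known. All 27050 features with at least 1 TPM in at least 3 libraries, the 170 genes among them, were fitted as log2(TPM + 1) with 8 group means and trended variances in limma 3.58.1 (R 4.3.3), and p-values were adjusted by Benjamini-Hochberg over all of them. A call needed an adjusted p under 0.05 and at least a 2-fold difference. Maturity against earlier stages of one origin chose the genes and was not tested. Genes were named by fixed ranks: mature level, margin, difference between origins, first-step change, nearness to the limits and consecutive IDs. Data were also simulated for the mature comparison of origins, over 27050 genes, with 50 genes changed at each size. By an adjusted p under 0.05 alone, 88, 94, 100 and 100% of genes changed by 0.5, 1, 2 and 4 (log2) were recovered. At that limit 11 of 202 simulated calls were false, and 1 of these was at least 2-fold. In the measured values 13240 genes were higher and 7856 lower in mature cultivated corms at that limit. The simulation changed far fewer genes, so its recovery and false calls cannot be carried over to the measured values. Alternatives were another pseudocount, no or a stricter filter, median-of-ratios scaling, the compared groups alone, a replicate block and single libraries left out.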

Additional observations from a re-analysis of the deposited data

Results flagged for a closer look

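Between cultivated and wild corms, the initial to maturity change was unequal for 36 of the named genes, by limma's interaction test across all genes (adjusted p under 0.05). Most genes passed at this limit, which sets no size. Of the 27050 tested, the change was more positive in cultivated corms for 13835 and in wild corms for 7634. Some of the named genes had been picked by this same test. Values are cultivated minus wild differences in log2(TPM + 1) change. Rises at least 4-fold larger in wild corms gave -2.57 for EdulChr45G00168380, -6.63 for EdulChr17G00062360, -3.05 for EdulChr104G00320360, -4.53 for EdulChr28G00112960, -2.73 for EdulChr47G00175760, -5.89 for EdulChr2G00006250, -5.56 for EdulChr12G00053320, -2.58 for EdulChr36G00140030, -2.18 for EdulChr71G00239880 and -2.43 for EdulChr58G00203990. Rises larger in wild corms by a lesser factor, of at least 2-fold, gave -1.13 for EdulChr2G00008800, -1.44 for EdulChr36G00140720, -1.98 for EdulChr50G00183750, -1.77 for EdulChr52G00189920, -1.67 for EdulChr97G00306880, -1.21 for EdulChr2G00009050, -1.25 for EdulChr11G00047460 and -1.35 for EdulChr67G00229460. Smaller differences of the same sign were -0.56 for EdulChr60G00209580, -0.63 for EdulChr2G00008810 and -0.66 for EdulChr5G00024150.

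Rises at least 4-fold larger in cultivated corms gave 3.00 for EdulChr65G00222140, 2.33 for EdulChr23G00094640 and 2.27 for EdulChr21G00086440. Differences between 2-fold and 4-fold gave 1.30 for EdulChr104G00321260, 1.66 for EdulChr10G00044580, 1.67 for EdulChr73G00246590, 1.74 for EdulChr43G00163500, 1.13 for EdulChr71G00238910, 1.27 for EdulChr81G00266800 and 1.25 for EdulChr58G00204000. The smallest were 0.19 for EdulChr42G00158800, 0.57 for EdulChr53G00192200, 0.75 for EdulChr103G00319030, 0.59 for EdulChr5G00024140 and 0.41 for EdulChr17G00065060. The direction for EdulChr42G00158800 turned over after median-of-ratios scaling, and those for EdulChr73G00246590, EdulChr103G00319030 and EdulChr17G00065060 with a pseudocount of 0.1. Those for EdulChr53G00192200, EdulChr5G00024140 and EdulChr17G00065060 did not pass the test after scaling (limma adjusted p of 0.963, 0.127 and 0.756), and that for EdulChr53G00192200 did not with a pseudocount of 0.1 (0.0631).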

How the results depend on the processing

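Scaling by median-of-ratios changed most. It gave 42 genes higher and 37 lower in cultivated corms at late and 31 and 56 at maturity. For middle to late it gave 10 higher and 19 lower in cultivated and 80 and 1 in wild corms. For initial to middle in cultivated corms it gave 2 lower, against 19.3% of all genes tested and 7.80% of those within the level limits. The initial to maturity change was more positive in cultivated corms for 17 genes, and the initial to middle change for 78, with 9 more positive in wild corms. A pseudocount of 0.1 gave 12 genes lower from middle to late in cultivated corms. All other counts of single comparisons stayed within 1.5 times, also with single libraries left out. Counts over several comparisons moved more with scaling. It gave 79 genes (46.5%) called higher at middle in cultivated corms alone and 9 (5.29%) in wild corms alone. Of all genes tested 13.7 and 1.74% were then so called, and of those within the level limits 20.7 and 1.18%. The cultivated level was then called higher at all 4 stages for 17 genes (10%), against 5.08% of all genes tested and 3.76% of those within the level limits. No call at the 2 earlier steps was made for 53 genes in cultivated corms and for 31 in both.

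The rule gave 1349 genes after scaling, 682 with the 10 highest genes removed, and 31 when maturity had to be 1.5 times every earlier stage. Their shares of mature cultivated and wild TPM were 9.64 and 7.16%, 8.70 and 8.04%, and 0.626 and 0.486%. A minimum of 2 TPM gave 2.80 and 2.11%, and one of 10 TPM 2.65 and 1.97%. Leaving out 1 replicate number from every group gave 165 to 170 genes, with shares of 2.55 to 2.90% and 2.01 to 2.24%. Of the 170 genes, 158, 158 and 159 were kept without replicate 1, 2 and 3, and other genes entered.

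Of 1407 refits of 87 differences of named genes, 20 changed direction, 10 moved above an adjusted p of 0.05, 5 moved below it and 1372 did neither, whatever the size of the difference. For the initial to maturity difference, scaling gave -0.27 for EdulChr42G00158800, -0.21 for EdulChr10G00042790, -0.53 for EdulChr37G00142320, -0.25 for EdulChr17G00065050 and -0.35 for EdulChr67G00229450. A pseudocount of 0.1 gave 0.62 for EdulChr40G00153710, -1.72 for EdulChr10G00042790, -0.27 for EdulChr73G00246590, -0.23 for EdulChr103G00319030, -0.057 for EdulChr17G00065050 and -0.062 for EdulChr17G00065060. Leaving out single libraries gave -0.22 to 0.23 for EdulChr40G00153710 and -0.024 to 0.089 for EdulChr10G00042790. For the initial to middle difference, scaling gave 0.035 for EdulChr2G00008810 and 0.42 for EdulChr58G00204000, and leaving out single libraries gave -0.0087 to 0.096 for EdulChr5G00024140. Scaling turned the mature difference of EdulChr53G00192200 to -0.13. The cause was not tested.

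In none of 28 pairs of groups did all same-numbered replicates deviate together, with correlations of -0.087 to 0.168. This gave no sign that the numbers pair the samples. Deviations around means of 3 libraries cannot exclude such a pairing. With the replicate number as a block, 51 genes were higher and 32 lower in cultivated corms at maturity, and no count moved by over 1.5 times. Depth is unknown, and genes near 1 TPM depend most on the pseudocount.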
